A study of Teleogryllus oceanicus with 18 samples.

Results

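MSTRG.10990, MSTRG.10135, MSTRG.10136, MSTRG.10137 and MSTRG.11188 are 5 of the 32729 annotated genes of the field cricket *Teleogryllus oceanicus*. They were chosen by identifier, as the genes that the study's list of immune genes names after phenoloxidases, apart from MSTRG.7273 and MSTRG.17307, which are used here for comparison. MSTRG.10990 and MSTRG.11188 are both named phenoloxidase 2-like, MSTRG.10135 and MSTRG.10137 are both named phenoloxidase subunit A3, and MSTRG.10136 is named PPO. The names rest on the study's protein matches to other species. The identifiers of MSTRG.10135, MSTRG.10136 and MSTRG.10137 are consecutive, and their positions in the genome were not analysed here.

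Phenoloxidase oxidises phenols to quinones, which polymerise to melanin, the dark material that insects lay down in wounds and around parasites too large to be engulfed. The enzyme is stored as an inactive precursor, prophenoloxidase (PPO), and is cut into its active form by a cascade of serine proteases. Phenoloxidase-activating factors belong to that cascade, and in moths, flies and mosquitoes the precursor is made largely by blood cells. Larvae of ormiine flies are known for breathing inside a cricket through a funnel built from the melanised tissue that the host forms around them.

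The crickets were sexually mature males of laboratory colonies from Kauai (Hawaii), where the parasitoid fly *Ormia ochracea* lives, and from Mangaia (Cook Islands), where it does not. Males of each population were collected uninfested, as controls, or at day 4 or day 7 of an infestation. Both infested stages were set against the same controls, which the study weighed up to day 7. Where day 4 is compared with controls or with day 7, length of infestation therefore cannot be told apart from age and time since handling. For day 7 against controls, the weighing shows that controls were kept at least as long, but the study does not state the day of their collection. Males whose larvae had emerged before day 7 were left out by the study. Infested males received 2 first-instar larvae (planidia) from flies caught in California, placed behind the thorax with a probe, and controls were handled alike with an empty probe. Both colonies were reared without flies, and only the Kauai colony was restocked from the wild regularly. Polyadenylated RNA came from tissue called abdomen here, after the larvae had been dissected out. The study's methods describe cricket bodies without head, digestive tract, pronotum, wings and legs. Each of the 18 libraries, 3 in each of 6 groups, pooled RNA of 2 males. Mangaia pools held normal-wing males and Kauai pools joined 1 flatwing male with 1 normal-wing male, so population and wing morph cannot be told apart.

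Read pairs assigned to genes numbered 6266925 to 8023588 per library (median 7286130), and 314 to 1796 of these belonged to the 5 genes. Levels are given as CPM, the counts of read pairs scaled to a common library total with TMM factors, on which 1 read pair was worth 0.122 to 0.166 CPM. TMM factors were 0.846 to 0.927 in Kauai controls, 0.977 to 1.06 at day 4 and 1.03 to 1.15 at day 7 in Kauai, and 0.900 to 1.09 in Mangaia. Pairs that mapped to several places, 6.57% to 14.4% of a library, were counted in no gene, so that near-identical copies are undercounted and the division of reads between genes of the same name is uncertain. MSTRG.10136 was counted on both strands (each strand column held 102% of its reads), as were 10191 of the 21223 genes with at least 100 reads. The libraries were unstranded, so for each of the 5 genes, reads from the opposite strand cannot be told apart from its own. The labelled tissue could not be checked against markers, since no marker of an abdominal tissue is named in the files or the study's list. Differences were tested for 23748 genes in one edgeR quasi-likelihood model of the 6 groups, and a gene was called at a Benjamini-Hochberg adjusted p under 0.05. Adjusted p-values below are from that test, ± is the SD of n = 3 libraries, and SE is that of a log2 fold change.

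**Figure D1:**
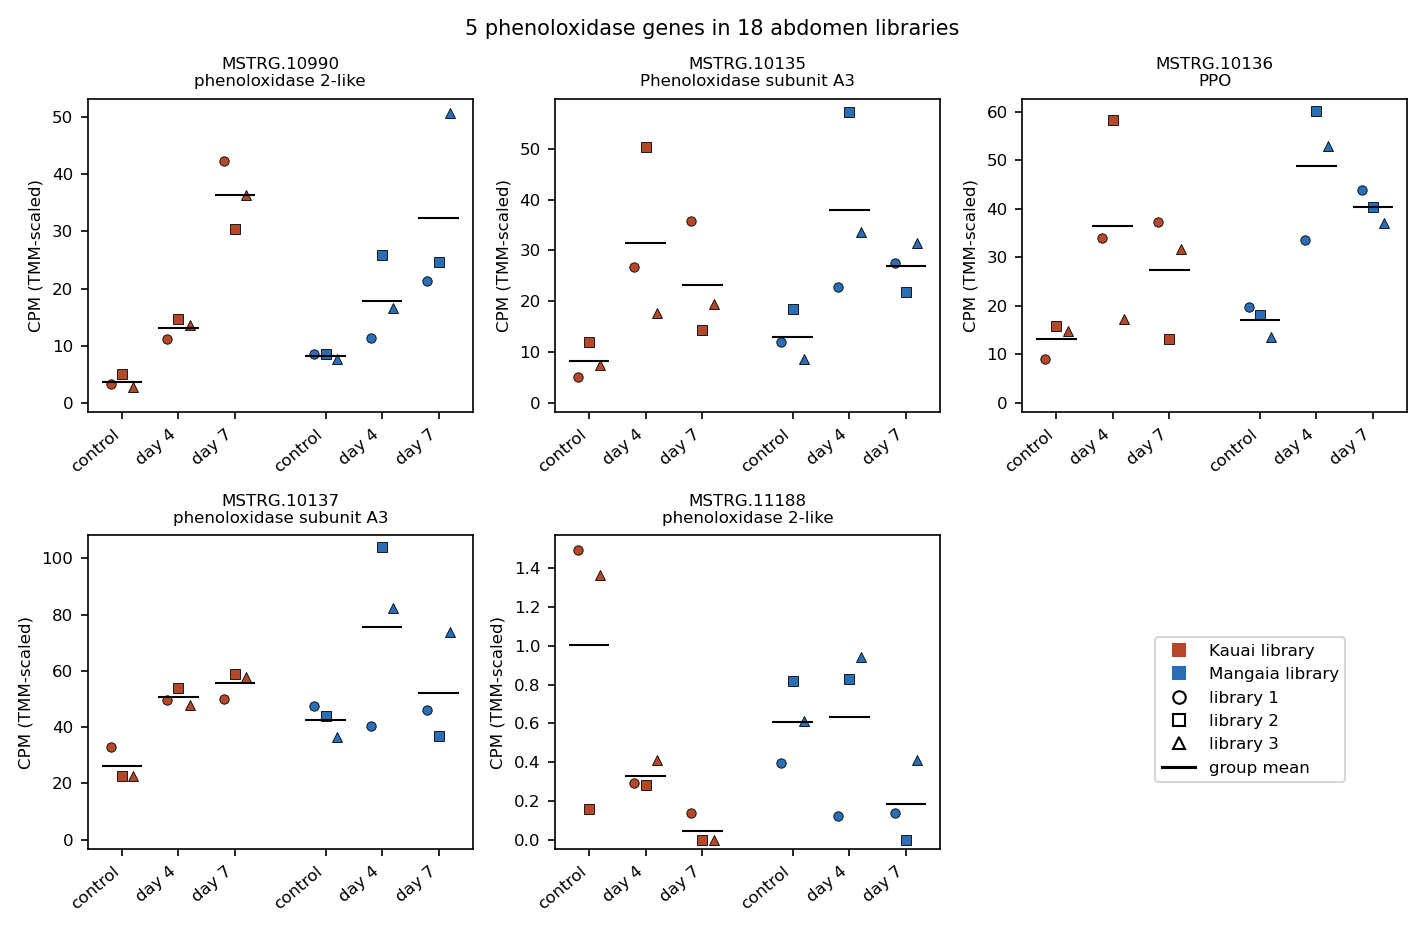
TMM-scaled CPM (linear axes) of each of the 5 genes in every library, by population and stage, with a horizontal line at each group mean. The group mean of MSTRG.10990 is highest at day 7 in Kauai (libraries 30.5 to 42.3 CPM, against 2.73 to 5.10 CPM in Kauai controls), its highest library is a Mangaia day 7 one (50.8 CPM), MSTRG.10135 and MSTRG.10136 have their highest libraries at day 4, and MSTRG.11188 stays under 1.5 CPM throughout.

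MSTRG.10990, a phenoloxidase 2-like gene, was higher in every infested library than in every control of its population. The rise grew with time: at day 7 it was 9.77-fold in Kauai and 3.90-fold in Mangaia, and only in this gene of the 5 was the step between day 4 and day 7 called (in Kauai). In Kauai the gene had 3.32, 5.10 and 2.73 CPM in the 3 controls, 11.1, 14.7 and 13.7 CPM at day 4, and 42.3, 30.5 and 36.4 CPM at day 7. The 3 Kauai stages did not overlap. In Mangaia it had 8.55, 8.58 and 7.63 CPM in controls, 11.4, 25.8 and 16.6 CPM at day 4, and 21.3, 24.7 and 50.8 CPM at day 7. Here the controls lay within 1 CPM of each other, while both infested stages spread widely and overlapped, with day 4 library 2 above day 7 libraries 1 and 2.

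The Kauai response of MSTRG.10990 was called at day 4 (log2 fold change 1.82, SE 0.36, adjusted p = 0.0184) and at day 7 (3.29, SE 0.37, adjusted p = 4.73e-05). The further rise between the stages, day 7 over day 4, was 1.47 (SE 0.34, adjusted p = 0.0106). In Mangaia the day 7 response was called (1.96, SE 0.35, adjusted p = 0.00152), and the day 4 response, 1.11 (SE 0.34, adjusted p = 0.0966), was not. Day 7 over day 4 was 0.85 in Mangaia (SE 0.33, adjusted p = 0.0683), also not called. Both day 7 calls held under each of the 29 alternative settings run. The Kauai day 4 call was lost without Kauai control library 1 (adjusted p = 0.0648) or library 3 (adjusted p = 0.112), and the step between stages without Kauai day 7 library 1 (adjusted p = 0.0504). The Mangaia day 4 response was called without Mangaia day 4 library 1 (adjusted p = 0.0488) or day 7 library 3 (adjusted p = 0.0427), and the Mangaia step between stages without day 4 library 2 (adjusted p = 0.0323) or day 7 library 1 (adjusted p = 0.0263). The edgeR likelihood ratio test (adjusted p = 0.0491) and DESeq2 (adjusted p = 0.0325) also called the Mangaia day 4 response, and limma voom did not. In RNA from bulk abdominal tissue, more cells of a type and more transcript per cell cannot be told apart, and this holds for every gene described here.

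MSTRG.10135 and MSTRG.10136 had their highest means at day 4 in both populations, with means at day 7 between those of day 4 and the controls. No difference between the 2 infested stages was called. In Kauai day 7 over day 4 was -0.44 for MSTRG.10135 (adjusted p = 0.481) and -0.41 for MSTRG.10136 (adjusted p = 0.464) on the log2 scale, and without Kauai day 4 library 2 these values were 0.079 and 0.11. Whether their time courses differ from those of the other genes was not tested. MSTRG.10135, a phenoloxidase subunit A3 gene, had 5.15, 12.0 and 7.43 CPM in Kauai controls, 26.7, 50.2 and 17.7 CPM at day 4, and 35.8, 14.5 and 19.4 CPM at day 7. In Mangaia it had 12.0, 18.5 and 8.70 CPM in controls, 22.8, 57.2 and 33.7 CPM at day 4, and 27.6, 21.9 and 31.4 CPM at day 7. Every infested library lay above every control of its population, but the libraries of 1 stage spread widely, from 17.7 to 50.2 CPM at day 4 in Kauai.

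For MSTRG.10135 the Kauai response was called at day 4 (log2 fold change 1.94, SE 0.47, adjusted p = 0.0456) and at day 7 (2.83-fold, SE 0.47 on the log2 scale, adjusted p = 0.0148). In Mangaia the values were 1.53 at day 4 (SE 0.46, adjusted p = 0.0897) and 1.04 at day 7 (SE 0.46, adjusted p = 0.0913), and neither was called. With the edgeR likelihood ratio test (adjusted p = 0.0293) and DESeq2 (adjusted p = 0.0265) the Mangaia day 4 response was called, and with limma voom it was not. The Kauai day 7 call was lost without control library 1 (adjusted p = 0.0643), control library 3 (adjusted p = 0.0541) or day 7 library 1 (adjusted p = 0.110), the highest of its group. The Kauai day 4 call was lost when any of 11 single libraries was left out (adjusted p = 0.0505 to 0.167) and was kept without Mangaia day 4 library 1 or 2, Mangaia day 7 library 2, Kauai day 4 library 3 or any of the Kauai day 7 libraries. That day 4 call therefore rested on an adjusted p just under the threshold, while the log2 fold change stayed between 1.42 and 2.32.

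MSTRG.10136, the gene named PPO after the enzyme's precursor, had 9.13, 15.8 and 14.9 CPM in Kauai controls, 33.9, 58.4 and 17.2 CPM at day 4, and 37.2, 13.3 and 31.8 CPM at day 7. Kauai day 7 library 2, at 13.3 CPM, lay within the range of the controls, and the other 5 infested Kauai libraries lay above every control. In Mangaia the gene had 19.7, 18.1 and 13.6 CPM in controls, 33.6, 60.1 and 52.8 CPM at day 4, and 43.9, 40.4 and 37.0 CPM at day 7, with no overlap between infested and control libraries. The Mangaia day 7 libraries were close together (40.5 ± 3.44 CPM), whereas the Kauai day 7 libraries were not (27.4 ± 12.6 CPM).

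The day 7 response of MSTRG.10136 was called in both populations, at 1.05 on the log2 scale in Kauai (SE 0.41, adjusted p = 0.0452) and 1.24 in Mangaia (SE 0.41, adjusted p = 0.0333). At day 4 it was 1.46 in Kauai (SE 0.42, adjusted p = 0.0816) and 1.51 in Mangaia (SE 0.41, adjusted p = 0.0614), and neither was called. The Mangaia day 7 call was lost when any of 11 single libraries was left out (adjusted p = 0.0545 to 0.101) and was kept without Mangaia day 4 library 2, any Kauai control, Kauai day 4 library 2 or 3, or Kauai day 7 library 2. The Kauai day 7 call was lost when any of 15 was left out (adjusted p = 0.0544 to 0.217), and was kept without Kauai day 4 library 2, Kauai day 4 library 3 or Kauai day 7 library 2. Over all settings the Kauai day 7 call was kept in 6 of 29. The day 4 response passed the threshold in Mangaia without any of 3 Kauai libraries, which were day 4 library 2 (adjusted p = 0.0375), day 4 library 3 (adjusted p = 0.0350) and day 7 library 2 (adjusted p = 0.0383). In Kauai it did so without day 4 library 3 (adjusted p = 0.0370) or day 7 library 2 (adjusted p = 0.0459). The edgeR likelihood ratio test called the day 4 response in Mangaia (adjusted p = 0.0146) and in Kauai (adjusted p = 0.0218). DESeq2 also called it in Mangaia (adjusted p = 0.01605) and in Kauai (adjusted p = 0.0399), and limma voom called it in neither. With the reads of both strand columns summed in place of the unstranded reads, the Kauai day 7 count of called genes was 3, since MSTRG.11188 and MSTRG.10136 were no longer among them.

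MSTRG.10137, the other phenoloxidase subunit A3 gene, was called in Kauai and not in Mangaia. Its fold change at day 7 was 2.13 in Kauai and 1.23 in Mangaia. In Kauai it had 33.0, 22.5 and 22.7 CPM in controls, 49.7, 54.0 and 48.0 CPM at day 4, and 49.8, 58.9 and 57.9 CPM at day 7. All 6 infested Kauai libraries lay in a narrow band above the controls, with no sign of the low library 2 at day 7 seen for MSTRG.10135 and MSTRG.10136. In Mangaia it had 47.4, 44.0 and 36.3 CPM in controls, 40.4, 104.1 and 82.3 CPM at day 4, and 46.1, 37.0 and 73.7 CPM at day 7, so that at each stage at least 1 infested library fell among the controls.

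The Kauai response of MSTRG.10137 was 1.09 at day 7 on the log2 scale (SE 0.31, adjusted p = 0.00813) and 0.96 at day 4 (SE 0.31, adjusted p = 0.110). The day 7 call held under each of the 29 alternative settings run. In Mangaia the response was 0.83 at day 4 (SE 0.30, adjusted p = 0.171) and 0.30 at day 7 (SE 0.30, adjusted p = 0.470). Mangaia day 4 library 1, the low library of its group, decided the day 4 result: without it the Mangaia response was 1.10 (adjusted p = 0.0321) and day 7 over day 4 was -0.94 (adjusted p = 0.0260). The Kauai day 4 response passed the threshold without that same library (adjusted p = 0.0458), and the cause of that change was not tested.

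MSTRG.11188, the other phenoloxidase 2-like gene, was close to the limit of detection, with 58 reads in the 18 libraries together. It had 9, 1 and 9 reads in Kauai controls, 2, 2 and 3 reads at day 4, and 1, 0 and 0 reads at day 7. In Mangaia it had 3, 6 and 4 reads in controls, 1, 6 and 7 reads at day 4, and 1, 0 and 3 reads at day 7. The filter of 1 CPM in at least 2 libraries was applied before TMM scaling. It was reached in Kauai control libraries 1 and 3 (9 reads each) and in Mangaia day 4 library 3 (7 reads). MSTRG.11188 thus passed largely through the group it was set against. Its lower level at day 7 in Kauai is therefore a description and is counted as no support for a fall.

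With that limit, the pooled reads of MSTRG.11188 were 1 in the Kauai day 7 libraries and 19 in the Kauai controls, a ratio of 0.0445 after scaling for depth (exact 95% interval 0.00107 to 0.280, counting error only). The edgeR test gave an adjusted p of 0.00819 for this comparison. The lowest Kauai control had 1 read (0.159 CPM), the same number as the highest Kauai day 7 library (0.139 CPM), so the groups were separated by depth alone at their nearest point. In Mangaia the pooled reads were 4 at day 7 and 13 in controls, a ratio of 0.292 (0.0694 to 0.945), with overlapping libraries and an adjusted p of 0.190. Day 4 ratios were 0.327 in Kauai (0.116 to 0.813, adjusted p = 0.325) and 1.01 in Mangaia (0.442 to 2.34, adjusted p = 0.997).

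**Figure D2:**
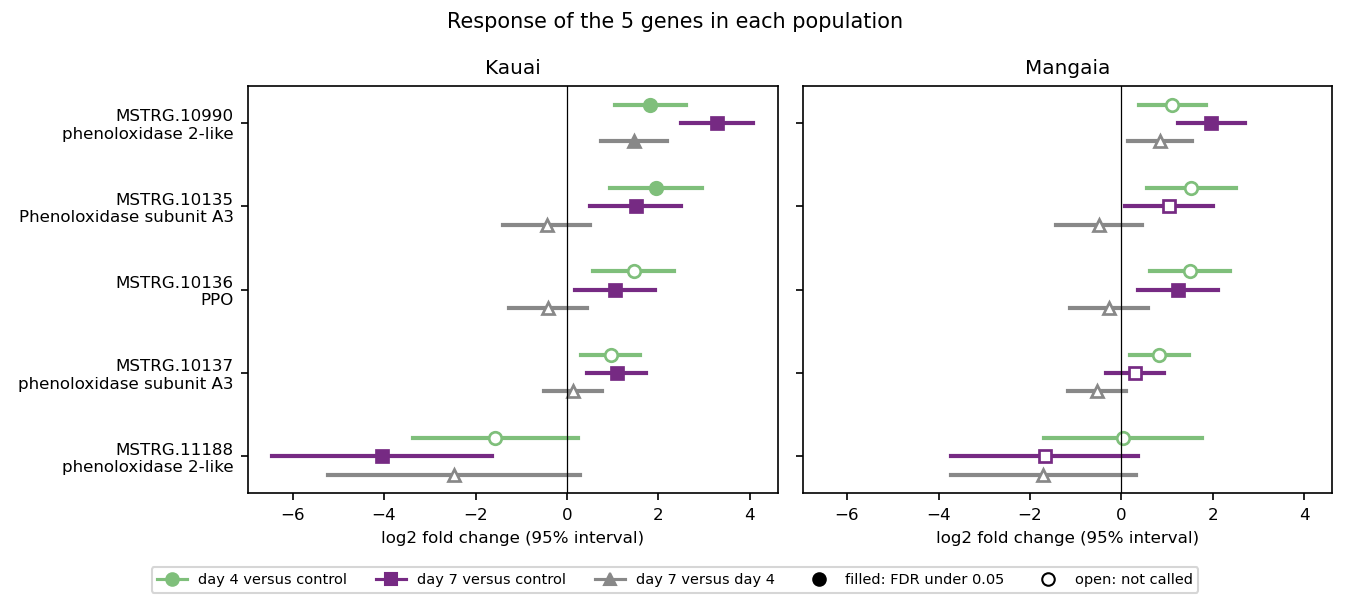
Log2 fold changes of the 5 genes with 95% intervals from the edgeR model, in Kauai (left) and Mangaia (right), for each infested stage over the controls and for day 7 over day 4. Filled symbols passed an adjusted p of 0.05: 10 symbols are filled, 8 of them in Kauai, and that of MSTRG.11188 rests on 1 read against 19.

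Set against all tested genes, the response of the 5 genes was as follows. At day 4 in Kauai, 2 of the 5 genes were called higher (MSTRG.10990 and MSTRG.10135), where 1.73% of all tested genes were, and the median log2 fold change was 1.46 for the 5 genes and 0.01 for all genes. Other tools gave other counts of the 5 and of all genes in either direction: DESeq2 called 3 and 6.30% of all genes, the likelihood ratio test 3 and 6.17%, and limma voom 0 and 1.18%, where the quasi-likelihood test called 2.07%. At day 4 in Mangaia the quasi-likelihood test called 0 of the 5, where 1.89% of all genes were called higher. An unadjusted p under 0.05 was reached by 4 of the 5 and by 3653 of the 23748 tested genes. In either direction DESeq2 called 3 of the 5 and 6.11% of all genes there, the likelihood ratio test 3 and 5.55%, and limma voom 0 and 2.59%, where the quasi-likelihood test called 3.11% of all genes. The median was 1.11 for the 5 genes and 0.00 for all genes.

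At day 7 in Kauai, 4 of the 5 genes were called higher, where 25.1% of all genes were, and MSTRG.11188 was the 1 called lower, where 26.2% of all genes were. In either direction 51.3% of all genes were called in that comparison, so a count of members called says little there. DESeq2 and limma voom called 3 of the 5 higher, each without MSTRG.10136 (adjusted p = 0.0970 with DESeq2 and 0.0948 with voom), and the likelihood ratio test called the same 4 as the quasi-likelihood test. Medians there were 1.09 for the 5 genes and 0.07 for all genes. At day 7 in Mangaia, MSTRG.10990 and MSTRG.10136 were called higher, 2 of the 5, where 12.6% of all genes were, with medians of 1.04 for the 5 genes and -0.01 for all genes. Between the infested stages, day 7 over day 4, 1 of the 5 was called higher in Kauai (MSTRG.10990), where 9.18% of all genes were. In Mangaia 0 of the 5 were called, where 26.6% of all genes changed in either direction. There 1 of the 5 had an unadjusted p under 0.05, as did 9534 of the 23748 tested genes. DESeq2, the likelihood ratio test and limma voom each called 0 of the 5 in that Mangaia comparison. The 2 infested stages of a population share its controls, so their counts are not independent.

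Scaling bears on the Kauai values. With library size alone in place of TMM the median of all genes moved to 0.24 at day 4 and 0.37 at day 7 in Kauai, and the share of calls that were higher was 95.1% at day 4 (83.7% with TMM) and 61.6% at day 7 (48.9% with TMM). The log2 fold changes of MSTRG.10990, 2.04 at day 4 and 3.59 at day 7 under that scaling, moved with the median, and no called gene among the 5 changed direction. Under it, 4 of the 5 were called higher at day 4 in Kauai, where 9.41% of all genes were called in either direction.

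The populations were compared at each stage, Kauai over Mangaia. Among controls 4 of the 5 genes had a lower mean in Kauai, where 48.9% of all genes had a positive log2 fold change. For MSTRG.10990 and MSTRG.10137 the libraries did not overlap, but no difference was called. The share of all genes without overlap was not computed, so the separation of these libraries is a description and no result about these genes. MSTRG.10990 averaged 3.72 ± 1.23 CPM in Kauai controls and 8.25 ± 0.541 CPM in Mangaia controls, which is -1.15 on the log2 scale (SE 0.37, adjusted p = 0.184). MSTRG.10137 averaged 26.1 ± 6.03 CPM in Kauai controls and 42.6 ± 5.66 CPM in Mangaia controls, which is -0.71 on the log2 scale (SE 0.30, adjusted p = 0.294). Of all genes, 0.0421% were called among controls. The quasi-likelihood test called 0 of the 5, and DESeq2, the likelihood ratio test and limma voom each called 0. An unadjusted p under 0.05 in the quasi-likelihood test was reached by 2 of the 5 and by 3539 of the 23748 tested genes.

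By day 7 the means of MSTRG.10990 were close in the populations, 36.4 ± 5.92 CPM in Kauai and 32.3 ± 16.1 CPM in Mangaia (log2 fold change 0.18, 95% interval -0.52 to 0.87). MSTRG.10137 averaged 55.5 ± 4.97 CPM in Kauai and 52.3 ± 19.1 CPM in Mangaia at day 7 (0.09, -0.55 to 0.73). For MSTRG.10136 the day 7 mean was 27.4 ± 12.6 CPM in Kauai and 40.5 ± 3.44 CPM in Mangaia (-0.56, -1.42 to 0.30). The quasi-likelihood test called 0 of the 5 at day 4, where 0.152% of all genes were called, and 0 of the 5 at day 7, where 3.53% were. None of the 5 had an unadjusted p under 0.05 at either infested stage, where 2339 (day 4) and 5570 (day 7) of the 23748 tested genes did. Each of the other 3 tools called 0 of the 5.

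Whether the response itself differed between populations was tested as an interaction, the Kauai response minus the Mangaia response. At day 4 it was called for 0 of the 5 genes and for 0% of all genes. There 0 of the 5 had an unadjusted p under 0.05, where 2320 of the 23748 tested genes did. At day 7 it was called for 0 of the 5, where 2.43% of all genes were called, and the smallest p among the 5 was that of MSTRG.10990, at 1.32 on the log2 scale (SE 0.49, 95% interval 0.29 to 2.36, unadjusted p = 0.0158, adjusted p = 0.137). DESeq2, the likelihood ratio test and limma voom each called 0 of the 5 at both stages. The interaction of MSTRG.10990 passed the threshold only with library size alone (1.67, adjusted p = 0.0491), a scaling under which the median interaction of all genes was 0.39. For MSTRG.10137 the day 7 interaction was 0.80 (SE 0.43, adjusted p = 0.296). The populations were thus not shown to differ in the response of any of the 5 genes, and calls made in one population alone are no evidence that they do.

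The ratio of MSTRG.10990 to MSTRG.10135 within a library differed between the infested stages. On the log2 scale it was 0.24, 1.06 and 0.90 in Kauai day 7 libraries, against -1.24, -1.75 and -0.36 in Kauai day 4 libraries. It was -0.37, 0.17 and 0.69 in Mangaia day 7 libraries, against -1.14 to -0.99 in the Mangaia day 4 libraries. Day 7 lay above day 4 in both populations, with no overlap. Controls had ratios of -1.36 to -0.59 in Kauai and -1.09 to -0.18 in Mangaia. Day 4 overlapped the controls in each population, and day 7 overlapped them in Mangaia. These ratios were chosen after the levels had been seen and were given no test.

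**Figure D3:**
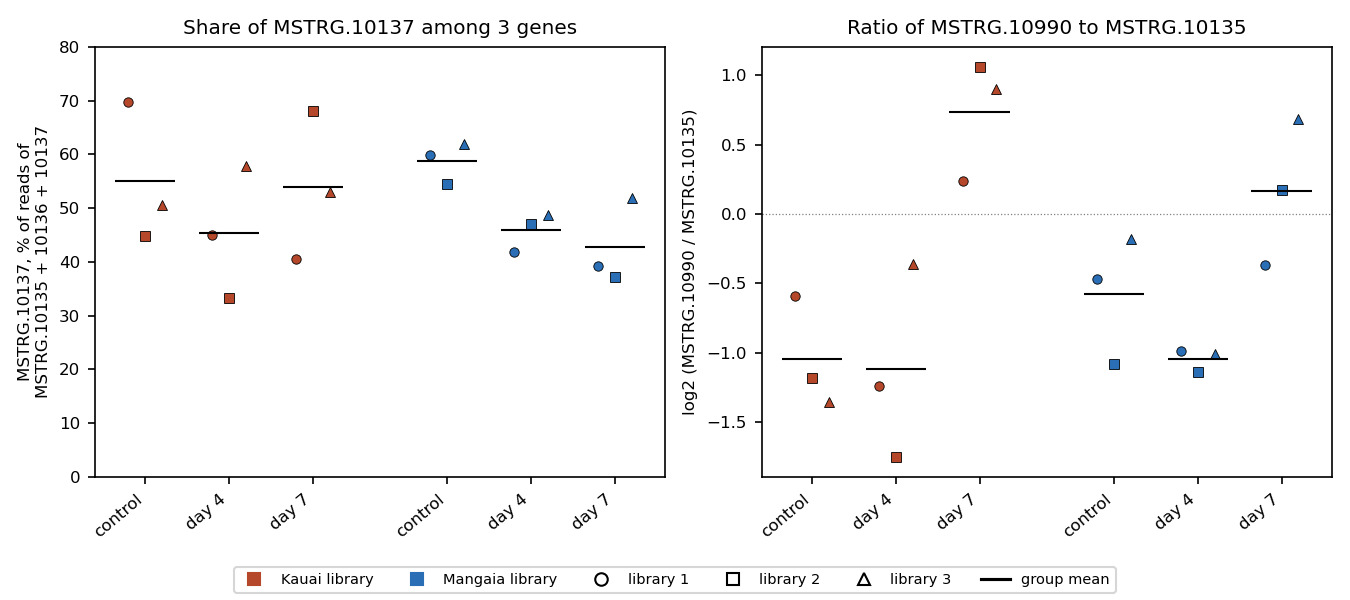
Left, MSTRG.10137 as a percentage of the reads of MSTRG.10135, MSTRG.10136 and MSTRG.10137 in each library; right, the log2 ratio of MSTRG.10990 to MSTRG.10135, both by population and stage with lines at group means. The share is below the controls in all 6 infested Mangaia libraries and overlaps them in Kauai, and the ratio is higher at day 7 than at day 4 in both populations.

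Among the reads of MSTRG.10135, MSTRG.10136 and MSTRG.10137 together, 285 to 1603 per library, the share of MSTRG.10137 was lower after infestation in Mangaia. It was 41.7% to 48.8% at day 4 and 37.3% to 51.8% at day 7 in Mangaia, against 54.6% to 62.0% in Mangaia controls. In Kauai it was 33.2% to 57.9% at day 4 and 40.6% to 68.0% at day 7, against 44.8% to 69.8% in Kauai controls, and the stages overlapped. MSTRG.10136 took 27.1% to 34.7% at day 4 and 26.1% to 40.7% at day 7 in Mangaia, against 22.5% to 25.0% in Mangaia controls. In Kauai it took 20.8% to 35.9% at day 4 and 15.3% to 30.3% at day 7, against 19.3% to 33.0% in Kauai controls, again with overlap. These shares depend on gene length within a library and were compared between libraries only. They were given no test, and the shares of a library sum to a fixed total, so they do not move independently.

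MSTRG.10135 and MSTRG.10136 followed each other from library to library. Over the 18 libraries their log2 CPM had a Pearson's r of 0.93 (Spearman's rho 0.93), and 0.89 without the pair of libraries farthest from the median of MSTRG.10135. Each was the other's most similar gene among all tested genes. Since infestation moves both, the deviations from the group means were also compared, and their r was 0.83. The points share library depth and scaling, and reads of similar sequences, so these coefficients are a description.

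MSTRG.10137 followed that pair less closely within groups. Its r with MSTRG.10135 was 0.73 over the libraries and 0.32 for deviations from the group means, and with MSTRG.10136 these values were 0.63 and 0.15. With MSTRG.10990 they were 0.73 and 0.66. MSTRG.10990 had an r of 0.72 with MSTRG.10135 and of 0.63 with MSTRG.10136. MSTRG.11188 had negative coefficients with the other 4 genes, from -0.59 with MSTRG.10990 to -0.05 with MSTRG.10137. For deviations from the group means these coefficients were positive, from 0.01 with MSTRG.10136 to 0.66 with MSTRG.10137, and its counts are too low to read either sign further.

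**Figure D4:**
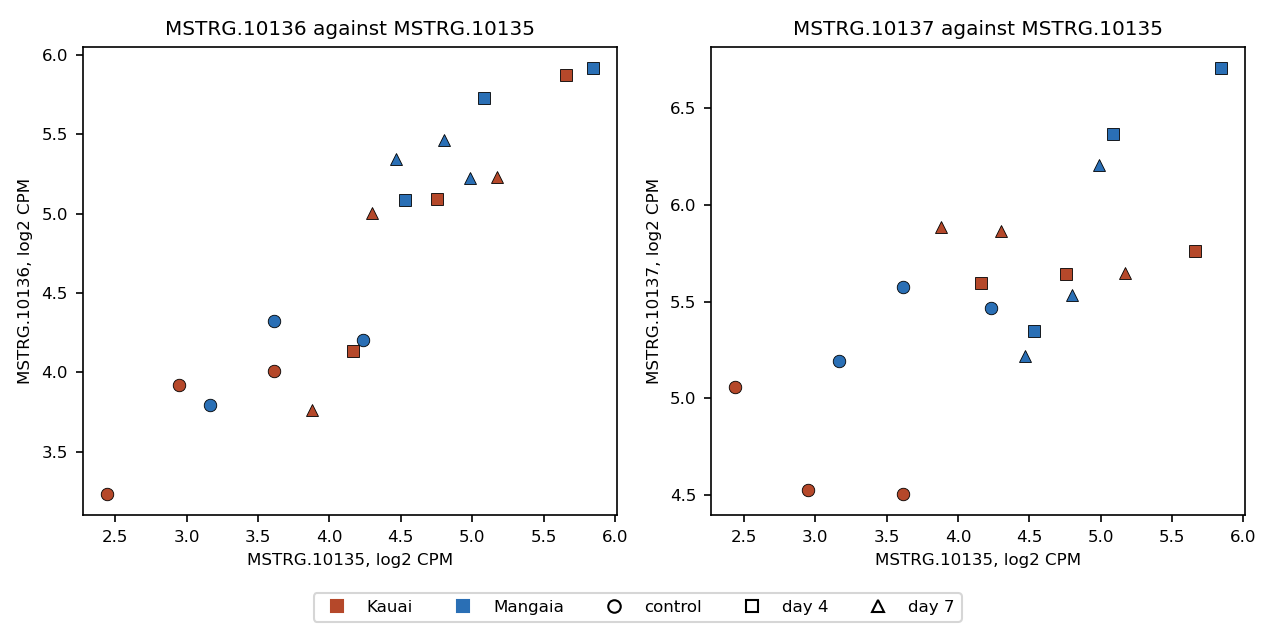
Log2 CPM of MSTRG.10136 (left) and MSTRG.10137 (right) against that of MSTRG.10135 in the 18 libraries, coloured by population, with a symbol for each stage. MSTRG.10136 lies close to a line (Pearson's r 0.93) and MSTRG.10137 scatters more widely (0.73).

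Single libraries carried part of this pattern. Mangaia day 4 library 2 was the highest of its group for MSTRG.10990, MSTRG.10135, MSTRG.10136 and MSTRG.10137, and so was Kauai day 4 library 2. Kauai day 4 library 2 also had the highest share of multimapping pairs (14.4%), and its most similar library over all genes was a Mangaia day 4 library; the part of either in these levels was not tested. Kauai day 7 library 2 was the lowest of its group for MSTRG.10990, MSTRG.10135 and MSTRG.10136 but the highest for MSTRG.10137. Mangaia day 7 library 3 was the highest of its group for MSTRG.10990, MSTRG.10135 and MSTRG.10137 and the lowest for MSTRG.10136. Mangaia day 7 library 2 also had its most similar library in another group (Kauai day 7 library 1), and leaving out both such libraries, an alternative added after the data were seen, gave 4 genes called higher and 1 lower at day 7 in Kauai, as before, 1 called at day 4 in Kauai and 1 called at day 4 in Mangaia.

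The genes most like each of the 5 across the 18 libraries carry no name in the study's list, except where MSTRG.10135 and MSTRG.10136 name each other. For MSTRG.10990 they were MSTRG.5628 (r 0.97) and MSTRG.12562 (r 0.97), and the member most like it, MSTRG.10137, ranked 2522 among all tested genes. MSTRG.5628 averaged 0.740 ± 0.0681 CPM in Kauai controls, 3.51 ± 0.869 CPM at day 4 and 10.7 ± 1.36 CPM at day 7. In Mangaia it averaged 2.10 ± 0.233 CPM in controls, 4.28 ± 0.916 CPM at day 4 and 6.31 CPM at day 7 (libraries 4.71 to 9.19 CPM). It was thus low in Kauai controls and highest at day 7 in Kauai, the order seen for MSTRG.10990. The similar genes were chosen by correlation over these same 18 libraries. A like order of groups therefore follows from the choice, here and for the genes below. The next most similar gene after MSTRG.10136 was MSTRG.17767 for MSTRG.10135 (r 0.87), and after MSTRG.10135 it was MSTRG.21180 for MSTRG.10136 (r 0.89), both highest at day 4 in each population. For MSTRG.10137 they were MSTRG.3835 (r 0.87) and MSTRG.828 (r 0.86). For MSTRG.11188 they were MSTRG.6622 (r 0.87) and MSTRG.11692 (r 0.84), both with their lowest mean at day 7 in each population.

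The other phenoloxidase genes of the study's list were MSTRG.7273 (phenoloxidase 2-like) and MSTRG.17307 (PPO), and the proteases that cut the precursor were represented by MSTRG.6730 and MSTRG.18615, both named phenoloxidase-activating factor 2. Of these 4 genes, 2 were called higher at day 4 in each population, where 1.73% of all genes were in Kauai and 1.89% in Mangaia. At day 7, 3 were called higher in Kauai (25.1% of all genes) and 4 in Mangaia (12.6% of all genes). The study drew its list from annotation, by homology to phenoloxidase or an immune term. These 4 genes were chosen here with earlier results of these data known, so the counts are not independent evidence of a direction. MSTRG.17307 had 103.4, 111.6 and 121.6 CPM in Kauai day 7 libraries, against 22.1, 18.6 and 18.6 CPM in Kauai controls (5.67-fold, adjusted p = 3.09e-06). It also rose at day 7 over day 4 in both populations (0.75 in Kauai and 0.90 in Mangaia, both called). MSTRG.10136 bears the same name, and its day 7 means lay below those at day 4. That change of MSTRG.10136 was called in neither population (-0.41 in Kauai, adjusted p = 0.464, and -0.27 in Mangaia, adjusted p = 0.649). A difference between these genes was not tested.

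MSTRG.7273, which shares its name with MSTRG.10990, had log2 fold changes of 4.07 in Kauai and 4.18 in Mangaia at day 7, and of 2.12 in Kauai and 3.45 in Mangaia at day 4, all 4 called. Like MSTRG.10990 it was called higher at day 7 than at day 4 in Kauai (1.95, SE 0.39, adjusted p = 0.00722) and not in Mangaia (0.73, SE 0.38, adjusted p = 0.163). Their day 4 interactions had opposite signs, -1.33 for MSTRG.7273 (adjusted p = 0.450) and 0.71 for MSTRG.10990 (adjusted p = 0.658), and neither was called. The activating factor MSTRG.6730 was called at day 7 in Kauai (1.09, adjusted p = 0.00282) and in Mangaia (1.04, adjusted p = 0.00877), and at day 4 in neither. MSTRG.18615 was called at day 7 in Mangaia (0.73, adjusted p = 0.0124), and its Kauai value was 0.41 (adjusted p = 0.0888).

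For the 4 members with more than trace counts, the order of the 6 groups can be given by their means. MSTRG.10990 ran from Kauai day 7 (36.4 CPM) through Mangaia day 7, Mangaia day 4, Kauai day 4 and Mangaia controls to Kauai controls (3.72 CPM). Only the last 2 steps of that order separated groups whose libraries did not overlap. MSTRG.10137 ran from Mangaia day 4 (75.6 CPM) to Kauai controls (26.1 CPM), likewise with a gap only on each side of the Mangaia controls. For MSTRG.10135 and MSTRG.10136 Mangaia day 4 was highest (37.9 and 48.8 CPM) and Kauai controls lowest (8.18 and 13.3 CPM), and each group overlapped its neighbour in the order.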

How the data were processed

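The authors sequenced 18 libraries of polyadenylated abdominal RNA as 50-nt pairs in a single unstranded HiSeq lane. Per the submitters' notes and the study's methods, reads were trimmed (Trimmomatic 0.33), aligned in a pair of passes (STAR 2.5.3a) and assembled (StringTie 1.3.4d). The deposited files give raw counts of uniquely mapped read pairs per gene, unstranded and for each strand. The unstranded counts were used. All 18 libraries entered each fit.

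A gene entered the test when 2 or more libraries reached 1 CPM (23748 of 32729 genes, all 5 members among them), with edgeR 4.0.16 in R 4.3.3, using TMM scaling and quasi-likelihood F tests of contrasts in one model of 6 groups, with Benjamini-Hochberg adjustment over all tested genes and a threshold of 0.05. The study's methods name an edgeR negative binomial model, and its likelihood ratio test was run as an alternative, with DESeq2 1.42.0 and limma 3.58.1 voom. At day 4 the likelihood ratio test called 1318 genes in Mangaia and 1466 in Kauai, the counts the study reported. SE was derived as |log2 fold change| over the root of the F statistic. Log2 CPM used a prior count of 2. Other alternatives replaced TMM by RLE or by library size, dropped the filter or used filterByExpr, fitted the compared libraries on their own, added a block for replicate number, summed both strand columns, or left out each library in turn. Counting intervals are exact binomial (Clopper-Pearson, 95%). The labels say that each library pools separate crickets, so p-values measure the spread between pools. The members and lists were chosen with earlier results of these data known. Named genes are the 5 members, 4 other genes of the pathway on the study's list, and for each member the 2 tested genes with the highest Pearson's r over the 18 libraries.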

Additional observations from a re-analysis of the deposited data

How the results depend on the processing

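Depth and 3 pools per group limit these results: in the comparisons with controls the 4 better-covered genes had SEs of 0.30 to 0.47 (log2), and MSTRG.11188 had at most 9 reads in a library. Of 1561 fits of 1 gene under an alternative, 1441 left direction and call as they were, 60 lost a call, 25 gained one and 35 turned a direction. The counts of called genes moved as follows. At day 4 in Mangaia, 0 in the report, 3 were called by the likelihood ratio test and by DESeq2, and 1 with only the libraries compared or without both libraries nearest to another group. At day 4 in Kauai, 2 in the report, 0 were called by limma voom, 4 with library size alone, and 1 each with RLE size factors, no filter, only the libraries compared, the replicate block, both strand columns summed, and without both libraries nearest to another group. At day 7, RLE left 1 of 2 in Mangaia, filterByExpr and summed strand columns each left 3 of 5 in Kauai (MSTRG.11188 failed both filters), 4 of 5 were left there by DESeq2, voom, RLE, no filter, only the libraries compared and the replicate block (each without MSTRG.10136), and library size alone gave 1 interaction. Leaving out 1 library gave 0 to 2 genes at day 4 and 1 to 2 at day 7 in Mangaia, 0 to 3 at day 4 and 3 to 5 at day 7 in Kauai, and 0 to 1 for day 7 over day 4 in each population.

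Directions turned only in values that were not called. MSTRG.11188 at day 4 in Mangaia was -0.28 with voom, -0.021 with the replicate block and -0.41 to 0.50 with 1 library left out. The day 4 interaction of MSTRG.10136 was 0.13 with library size alone, 0.019 with only the libraries compared and -0.61 to 0.36 with 1 library left out, and its day 7 interaction was 0.18 with library size alone and -0.45 to 0.24 with 1 left out. Without both libraries nearest to another group, day 7 over day 4 in Kauai was 0.066 for MSTRG.10135 and 0.10 for MSTRG.10136, Kauai over Mangaia at day 7 was -0.11 for MSTRG.10137, and the day 4 interaction of MSTRG.10135 was -0.10. With 1 library left out, day 7 over day 4 in Kauai ran from -0.99 to 0.079 for MSTRG.10135, -0.85 to 0.11 for MSTRG.10136 and -0.017 to 0.19 for MSTRG.10137. Kauai over Mangaia ran from -0.79 to 0.16 (MSTRG.10135, day 4), -0.62 to 0.10 (MSTRG.10135, day 7), -0.085 to 0.63 (MSTRG.10990, day 7) and -0.12 to 0.39 (MSTRG.10137, day 7). The day 4 interaction ran from -0.15 to 0.81 for MSTRG.10135 and -0.12 to 0.39 for MSTRG.10137. The cause of these changes was not tested. Same-numbered libraries of a population deviated from their group means with correlations of -0.31 to 0.26, and 6 of 18 were over 0.1, and pairing by number was therefore not taken up beyond the block above.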
